A study of Mus musculus with 6 samples.

Results

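The plexins, semaphorins and neuropilins are a family of guidance ligands and receptors, and 31 protein-coding genes of the 56884 genes in the deposited table carry their names: 9 plexins (Plxna, Plxnb, Plxnc and Plxnd genes), 20 semaphorins of classes 3 to 7, and both neuropilins (Nrp1 and Nrp2). Gene name and gene type define the members, but the family was selected on these same normalized counts, since it was put forward with the DKK1 minus control differences known. The adjusted p-values below therefore describe how each gene's difference compares with the spread between libraries, and they are no evidence about the family as a whole.

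Transcripts were measured by RNA sequencing in cells labelled as mouse neutrophils, the short-lived granulocytes that the bone marrow releases into blood. Per the labels, all 6 libraries come from mature neutrophils that were sorted from marrow by the surface proteins CD101 and Ly6G and kept in culture outside the animal, 3 of them with DKK1 and 3 without it (control). DKK1 (Dickkopf-1) is a secreted antagonist of Wnt signalling that binds the co-receptors LRP5 and LRP6. Strain, age, DKK1 dose and culture time are not stated in the labels. Nor do they say whether each library had its own animal or culture, so a p-value measures library-to-library spread that may be technical.

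Semaphorins are secreted, membrane-spanning or lipid-anchored proteins, and plexins are their main receptors. A plexin that has bound its ligand acts through its own GTPase-activating domain and through small GTPases to change integrin adhesion and the actin cytoskeleton, which steers the movement of axons, blood vessel cells and leukocytes. Most class 3 semaphorins reach A-type plexins only through a neuropilin, whereas the other classes bind plexins directly.

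Libraries held 5188116 to 8749228 reads with DKK1 and 8688911 to 9851961 in control, and 15610 to 16751 genes had at least 1 read. DKK1 library 2 was the shallowest and stood apart: it differed from the other DKK1 libraries by a chi-square per degree of freedom of 13.6 and 12.5, while the other pairs within a group gave 2.19 to 2.99. The markers of the sorted cell were almost absent with DKK1, so the libraries labelled DKK1 go against their labelled cell type, and what cells they hold was not tested. All 10 mature neutrophil markers were lower there, with summed normalized counts (reads per gene as scaled between libraries by the authors) of 3165 to 3806 in DKK1 libraries and 705902 to 731660 in control libraries, and Cd101 averaged 3.53 ± 2.31 with DKK1 and 5098 ± 178 in control (SD, n = 3 each). Ly6g averaged 5.96 ± 1.30 with DKK1 and 1338 ± 72.7 in control. Of 10 macrophage markers, 4 were higher and 4 lower with DKK1, and their sum was 28775 to 30787 with DKK1 and 4734 to 4958 in control. The sum with DKK1 was mostly Gpnmb and Cd68. Gpnmb alone averaged 14292 ± 1096 with DKK1 and 3.17 ± 1.81 in control, and Cd68 10121 ± 286 with DKK1 and 902 ± 43.7 in control. Among the lower ones, Csf1r averaged 2073 ± 141 with DKK1 and 2754 ± 41.4 in control. C1qb and C1qc averaged 7.28 and 7.10 with DKK1 and 25.0 and 24.6 in control. C1qa was at 0 in all DKK1 libraries and averaged 21.3 in control. Of 6 osteoclast markers, 3 were higher (Acp5, Ctsk and Atp6v0d2), with sums of 1719 to 2040 with DKK1 and 14.8 to 32.4 in control, while Dcstamp and Ocstamp had 0 reads in every library. Of 7 dendritic cell markers, 3 were higher and 2 lower, with sums of 643 to 730 with DKK1 and 1636 to 1706 in control that are mostly Itgax (629 ± 50.7 with DKK1 and 1642 ± 39.9 in control), a gene neutrophils also express. The 3 higher ones, Zbtb46, Ccr7 and Xcr1, averaged 6.96, 21.6 and 19.2 with DKK1 and 0.657, 0 and 0.366 in control. All 4 tested erythroid markers were lower, and their sums were 202 to 919 with DKK1 and 1082 to 1136 in control. Of 3 tested endothelial markers 1 was higher and 2 were lower, and their sums were 52.3 to 69.3 with DKK1 and 262 to 308 in control, mostly Pecam1 (37.5 ± 7.21 with DKK1 and 239 ± 13.8 in control). Cldn5 and Emcn had 0 reads in both groups, and Cdh5 had 0 with DKK1 and 1 in control. B cell markers were lower for 4 of 5 (sums of 2.75 to 44.0 with DKK1 and 56.0 to 71.5 in control), and T and NK cell markers for 2 of 2 tested (0 to 2.98 with DKK1 and 47.3 to 74.7 in control). Of 3 tested fibroblast and stroma markers 2 were higher (92.4 to 162 with DKK1 and 46.1 to 61.4 in control), and of 2 tested megakaryocyte markers neither passed (31.6 to 38.4 with DKK1 and 11.8 to 37.3 in control). Each sum covers all listed markers of its cell type, with those that were not tested included. These marker levels moved with the group, and their part in the results below was not tested. In bulk RNA, fewer cells of a type and less RNA per cell cannot be told apart.

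Start-site sequences are shown for 3 family members with large differences, to set the receptor with the highest level under DKK1 (Plxnd1) and a co-receptor that was higher (Nrp2) beside a ligand that was nearly lost (Sema4f). Each run is the 250 bases before the RefSeq start, read 5′ to 3′ on the gene's strand, from GRCm38.p6. These are chr6:115995006-115995255 (minus strand) for Plxnd1, chr1:62703067-62703316 (plus strand) for Nrp2 and chr6:82939770-82940019 (minus strand) for Sema4f. Capitals mark GAGGAA, or TTCCTC where it lies on the other strand, the purine-rich box that the myeloid factor PU.1 binds, and CTTTGAT (other strand ATCAAAG), the core that the Wnt-pathway factors TCF and LEF bind.
Plxnd1 promoter: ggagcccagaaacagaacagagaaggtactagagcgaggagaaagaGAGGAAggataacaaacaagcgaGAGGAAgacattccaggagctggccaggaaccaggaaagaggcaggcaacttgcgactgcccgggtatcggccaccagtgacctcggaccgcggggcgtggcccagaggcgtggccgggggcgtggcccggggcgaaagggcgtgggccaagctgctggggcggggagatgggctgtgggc
Nrp2 promoter: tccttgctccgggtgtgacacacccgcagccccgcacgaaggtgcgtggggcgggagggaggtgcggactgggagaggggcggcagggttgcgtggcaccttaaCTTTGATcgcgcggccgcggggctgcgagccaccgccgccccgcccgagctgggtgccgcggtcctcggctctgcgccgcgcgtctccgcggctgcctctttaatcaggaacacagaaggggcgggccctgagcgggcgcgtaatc
Sema4f promoter: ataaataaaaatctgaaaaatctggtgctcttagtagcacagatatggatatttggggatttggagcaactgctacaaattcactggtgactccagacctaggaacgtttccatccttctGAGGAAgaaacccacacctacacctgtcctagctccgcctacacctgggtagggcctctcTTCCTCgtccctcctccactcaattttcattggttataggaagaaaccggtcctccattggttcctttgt
The Plxnd1 run held GAGGAA at 204 and 181 bases before the start, and the Sema4f run held it at 130 bases and, on the other strand, at 70 bases. The Nrp2 run held CTTTGAT at 146 bases before the start. The Nrp2 run was 72.4% G and C with 32 CpG pairs, the Plxnd1 run 64.8% with 16, and the Sema4f run 46.0% with 4, against medians of 52.4% and 6 over all 32851 promoters of this length. Over the 37 start sites of the 26 family genes with an entry, 12 (32.4%) held GAGGAA on either strand, against 23.3% of all promoters, and 1 (2.70%) held CTTTGAT, against 3.21%. The 1 start site with CTTTGAT is the Nrp2 run shown, and the run before Sema7a, the ligand with the largest fall, held neither motif. The motifs and the genes were chosen after the values were seen, so the 3 runs do not stand for the family. A match is a description of letters only. Plxna1, Plxna4, Sema3b, Sema3f and Sema6a had no entry.

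The family held transcripts of both directions. Of the 31 genes, 19 reached a value of 1 or more in 3 or more libraries and were tested. With DKK1, 8 of these were higher and 6 were lower at a Benjamini-Hochberg adjusted p under 0.05 (limma on log2(normalized count + 1)), and 5 did not pass. Over all 16265 genes tested, 35.1% were higher and 36.1% were lower (5709 and 5873 genes), so that nothing is read from the family's count of calls. Scaling the libraries to equal total reads gave 7098 higher and 4742 lower genes in all (43.6% and 29.2%), and 9 higher and 6 lower in the family. The median log2 change of the 19 genes was 0.51, beside -0.03 for all genes tested. It was 0.05 without control library 3, 0.13 with a pseudocount of 10, and 1.01 beside 0.44 for all genes with equal total reads. By class, 4 of 6 tested plexins were higher and 1 was lower (Plxnb3), both neuropilins were higher, and of 11 tested semaphorins 2 were higher (Sema4d and Sema4c) and 5 were lower (Sema4a, Sema4b, Sema4f, Sema6b and Sema7a). The 3 DKK1 values lay wholly above the 3 control values in 9 tested family genes (36.5% of all genes tested) and wholly below in 6 (37.4%). All 14 calls held with DKK1 library 2 left out (34.7% of all genes higher and 36.2% lower), with edgeR on recovered reads (33.8% and 36.3%) and with DESeq2 (31.6% and 34.1%).

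**Figure D1:**
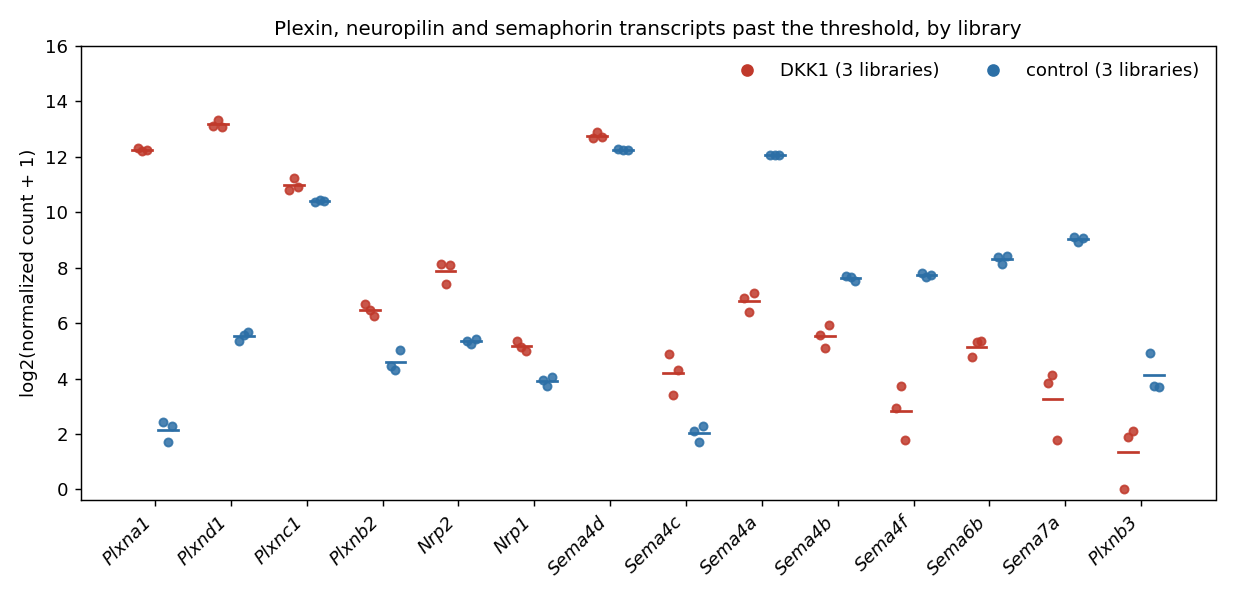
Each point is a library's log2(normalized count + 1) for a family gene past the threshold, with DKK1 in red to the left of control in blue, and the bars are group means of 3 libraries. Plxna1 and Plxnd1 lie far higher with DKK1 than in control, and Sema4a, Sema4f and Sema7a lie far lower with DKK1 than in control.

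Among the receptors, Plxna1 (ENSMUSG00000030084.12) showed the largest log2 change in the family. Plexin A1 is a receptor for class 3 semaphorins, together with neuropilins, and for Sema6d, and in mouse dendritic cells and osteoclasts it is known to associate with TREM2 and the adaptor DAP12. The gene lies on chromosome 6 (89316314 to 89362620, minus strand, GRCm38). Normalized counts were 5099, 4758 and 4875 in DKK1 libraries 1 to 3, and 4.39, 2.23 and 3.94 in control libraries 1 to 3. Control values rest on 4, 2 and 4 reads, so the transcript was close to undetected without DKK1 and the groups are far apart. The mean was 4911 ± 173 with DKK1 and 3.52 ± 1.14 in control (SD, n = 3 each), a 1394-fold difference and a log2 change of 10.12 ± 0.19 (SE, adjusted p = 3.00e-10, limma), or 8.51 with a pseudocount of 10. Only 4 of the 16265 genes tested had a larger log2 change. The antisense gene Gm26811 overlaps Plxna1 and had 49.9, 22.0 and 44.9 normalized counts with DKK1 and 0 in all control libraries, and Gm44207, also antisense to Plxna1, had 14.9, 6.87 and 4.90 with DKK1 and 0 in control. The labels do not state whether the libraries keep strand, so reads of overlapping genes cannot be assigned with certainty.

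Plxnd1 (ENSMUSG00000030123.16) was the most abundant plexin with DKK1. Plexin D1 binds Sema3e without a neuropilin and is best known from the guidance of growing blood vessels. It lies on chromosome 6 (115954811 to 115995005, minus strand). Normalized counts were 8833, 10388 and 8685 with DKK1, and 39.5, 46.9 and 50.2 in control. The lowest DKK1 library stood far above the highest control library. The mean was 9302 ± 943 with DKK1 and 45.6 ± 5.48 in control (SD, n = 3 each), a 204-fold difference and a log2 change of 7.64 ± 0.11 (SE, adjusted p = 8.03e-11, limma).

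Plxnc1 (ENSMUSG00000074785.6), the receptor of Sema7a, was the main plexin of the control cells and moved little. It lies on chromosome 10 (94790866 to 94944835, minus strand). Normalized counts were 1763, 2397 and 1903 with DKK1, and 1311, 1393 and 1339 in control. The lowest DKK1 library lay above the highest control library, and DKK1 library 2 was the highest. The mean was 2021 ± 333 with DKK1 and 1348 ± 41.6 in control, a 1.5-fold difference (SD, n = 3 each) and a log2 change of 0.57 ± 0.11 (SE, adjusted p = 0.00103, limma). Without DKK1 library 2 the log2 change was 0.44, and with equal total reads it was 1.10.

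The B-type plexins were low. Plexin B1 is the high-affinity receptor of Sema4d, and Plxnb1 had 0 reads in all 6 libraries, which allows up to 3 reads per library, or 2.24 to 4.12 normalized counts in a DKK1 library and 2.96 to 3.35 in a control library. Plxnb2, whose protein binds class 4 semaphorins such as Sema4c, had 102, 87.9 and 75.1 normalized counts with DKK1, and 20.9, 19.0 and 31.5 in control. This is a 3.71-fold difference (log2 change 1.87 ± 0.26 SE, adjusted p = 0.000138, limma), with no overlap between groups. Plxnb3, a receptor of Sema5a, went the other way, with 0, 2.75 and 3.27 normalized counts with DKK1 and 29.7, 12.3 and 11.8 in control. Its log2 change was -2.78 ± 0.66 (SE, adjusted p = 0.00434, limma), and it was -2.12 without DKK1 library 1, -1.17 with a pseudocount of 10 and -4.05 with a pseudocount of 0.1 (adjusted p = 0.04). Of the other A-type plexins, Plxna3 averaged 2.94 ± 1.03 with DKK1 and 1.85 ± 1.70 in control (SD, n = 3 each; adjusted p = 0.36, limma), Plxna2 had 3, 4 and 0 reads with DKK1 and 0 in control, and Plxna4 had 0 reads throughout.

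Both neuropilins, the co-receptors that class 3 semaphorins share with vascular endothelial growth factors, were higher with DKK1. Nrp2 (ENSMUSG00000025969.16, chromosome 1, 62703285 to 62818695, plus strand), which favours Sema3f, had 280, 169 and 271 normalized counts with DKK1, and 39.5, 36.9 and 42.4 in control. DKK1 library 2 was the lowest of its group and still well above every control library. The mean was 240 ± 61.8 with DKK1 and 39.6 ± 2.75 in control (SD, n = 3 each), a 6.06-fold difference and a log2 change of 2.54 ± 0.21 (SE, adjusted p = 4.54e-06, limma). Nrp1, which favours Sema3a, had 39.5, 34.3 and 31.0 normalized counts with DKK1, and 14.3, 12.3 and 15.8 in control. Its 2.48-fold difference passed the threshold as well (log2 change 1.25 ± 0.28 SE, adjusted p = 0.00291, limma).

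Their secreted ligands were almost absent from both groups. Of the 7 class 3 semaphorins, only Sema3b passed the filter, with 3.63 ± 3.08 normalized counts with DKK1 and 3.57 ± 0.794 in control (SD, n = 3 each; adjusted p = 0.76, limma). Sema3a, Sema3e and Sema3f, the ligands tied above to Nrp1, Plxnd1 and Nrp2, had 0 reads in all 6 libraries. Sema3c had 3, 0 and 7 reads with DKK1 and 0 in control, Sema3d had 1 read in DKK1 library 3, and Sema3g had 0 reads with DKK1 and 2, 0 and 1 in control.

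The class 4 semaphorins are membrane-spanning proteins that immune cells use as ligands, and all 6 passed the filter. Sema4d (ENSMUSG00000021451.17, chromosome 13, 51685529 to 51793747, minus strand) encodes CD100, which is shed from leukocytes and acts through plexin B1 in many tissues and through CD72 on lymphocytes. Normalized counts were 6616, 7598 and 6663 with DKK1, and 5013, 4814 and 4835 in control. The groups do not overlap, and DKK1 library 2 was again the highest. The mean was 6959 ± 554 with DKK1 and 4887 ± 109 in control (SD, n = 3 each), a 1.42-fold difference and a log2 change of 0.51 ± 0.06 (SE, adjusted p = 7.08e-05, limma). It was 0.44 without DKK1 library 2 and 1.04 with equal total reads. Sema4c was low but higher with DKK1, with 28.3, 9.62 and 18.8 normalized counts against 3.29, 2.23 and 3.94 in control (log2 change 2.16 ± 0.48 SE, adjusted p = 0.00311, limma). With a pseudocount of 10 its log2 change was 1.08.

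Sema4a (ENSMUSG00000028064.18, chromosome 3, 88435959 to 88461182, minus strand), a ligand of mouse T cells through TIM-2 and of several plexins, showed the largest difference in normalized counts among the ligands. Normalized counts were 118, 83.8 and 136 with DKK1, and 4283, 4322 and 4272 in control. The control libraries were close to each other, and every DKK1 library was far below them. The mean was 112 ± 26.3 with DKK1 and 4292 ± 26.4 in control (SD, n = 3 each), 38.2-fold lower, with a log2 change of -5.27 ± 0.15 (SE, adjusted p = 3.27e-09, limma). Sema4f (ENSMUSG00000000627.16, chromosome 6, 82911885 to 82939769, minus strand) had 6.71, 12.4 and 2.45 normalized counts with DKK1, and 223, 202 and 213 in control, 29.6-fold lower (log2 change -4.91 ± 0.44 SE, adjusted p = 7.00e-06, limma), or -3.74 on the log2 scale with a pseudocount of 10. Sema4b (ENSMUSG00000030539.14, chromosome 7, 80186841 to 80226527, plus strand) had 47.0, 33.0 and 60.4 with DKK1, and 206, 200 and 181 in control, 4.19-fold lower (log2 change -2.08 ± 0.22 SE, adjusted p = 2.33e-05, limma). For all 3 genes the DKK1 libraries lay wholly below control. Sema4g averaged 8.25 ± 1.55 with DKK1 and 4.22 ± 0.801 in control, without overlap (SD, n = 3 each), and did not pass (log2 change 0.82, adjusted p = 0.103, limma), although it did with equal total reads (1.27, adjusted p = 0.0205) and without trend and robust fitting (adjusted p = 0.0111).

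Sema7a and Sema6b were the other ligands that fell. Sema7a (ENSMUSG00000038264.9, chromosome 9, 57940112 to 57962865, plus strand) is anchored to the membrane by a lipid and binds integrin β1 as well as plexin C1. Normalized counts were 13.4, 16.5 and 2.45 with DKK1, and 550, 485 and 535 in control. DKK1 library 3 was the lowest, and no DKK1 library came near control. The mean was 10.8 ± 7.38 with DKK1 and 523 ± 34.2 in control (SD, n = 3 each), 48.5-fold lower, with a log2 change of -5.78 ± 0.53 (SE, adjusted p = 9.16e-06, limma) of -5.04 without DKK1 library 3 and of -4.75 with a pseudocount of 10. Its plexin receptor was thus modestly higher while the ligand transcript was close to lost. Sema6b (ENSMUSG00000001227.13, chromosome 17, 56123085 to 56140343, minus strand), a ligand of A-type plexins, had 26.1, 38.5 and 40.0 normalized counts with DKK1, and 336, 277 and 341 in control, 9.12-fold lower without overlap (log2 change -3.17 ± 0.20 SE, adjusted p = 5.10e-07, limma). Sema6d, the plexin A1 ligand, averaged 2.65 ± 2.61 with DKK1 and 1.86 ± 2.33 in control (adjusted p = 0.734), and Sema6c averaged 1.16 ± 1.42 with DKK1 and 1.07 ± 0.0713 in control (adjusted p = 0.836, limma, SD, n = 3 each). Sema6a had 3 reads in DKK1 library 2, Sema5a had 3 reads in DKK1 library 1, neither had a read elsewhere, and Sema5b had 0 reads in all libraries.

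**Figure D2:**
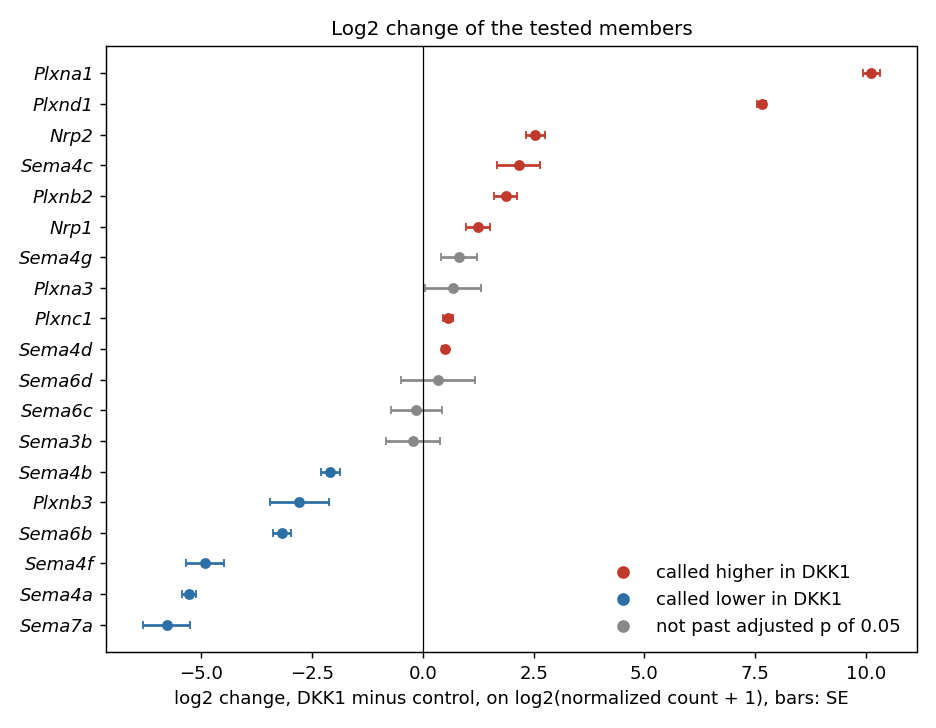
The log2 change (DKK1 minus control, on log2(normalized count + 1), bars: SE) of the 19 tested family genes, in red where higher with DKK1, in blue where lower and in grey where the adjusted p did not pass 0.05. The plexins and neuropilins lie on the right except Plxnb3, and the changes run from 10.12 for Plxna1 to -5.78 for Sema7a.

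Levels can be compared between genes only per length, and on this scale (normalized count per kb of exon, exon lengths from GENCODE M21) the make-up of each class differed between groups. Plexin transcripts summed to 2071 ± 154 per kb with DKK1 and 174 ± 3.93 per kb in control (SD, n = 3 each). Plxnd1 made up 61.4% ± 1.60 of that sum with DKK1 and 3.58% ± 0.395 in control, and Plxna1 26.3% ± 2.58 with DKK1 and 0.225% ± 0.0765 in control. Plxnc1 fell to 11.6% ± 1.10 of the sum with DKK1, against 92.7% ± 0.780 in control, although its own level was higher. The semaphorin sum was lower, at 956 ± 67.6 per kb with DKK1 and 1747 ± 29.6 per kb in control. Sema4d alone made up 94.8% ± 0.833 of it with DKK1 and 36.4% ± 0.294 in control, where Sema4a added 45.5% ± 0.978 and Sema7a 9.08% ± 0.460. With DKK1, Sema4a added 2.20% ± 0.631 and Sema7a 0.337% ± 0.223. These sums and shares are descriptions with no test. Under the authors' scaling the normalized counts of a library add to 6.52e+06 to 7.13e+06 with DKK1 and 9.71e+06 to 9.78e+06 in control. The sums therefore depend on that scaling when compared between groups, while shares within a library do not.

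Ranked by the level per kb, Plxnd1 led with DKK1 (1274 ± 129), followed by Sema4d (906 ± 72.1), Plxna1 (542 ± 19.1) and Plxnc1 (242 ± 39.9), and these did not overlap between libraries. Sema4a (20.8 ± 4.86) and Nrp2 (20.3 ± 5.22) came next and did overlap. In control the order began with Sema4a (794 ± 4.88), Sema4d (636 ± 14.2) and then Plxnc1 (161 ± 4.99) and Sema7a (159 ± 10.4), and the last pair overlapped (SD, n = 3 each). Plxnd1 stood at 6.24 per kb and Plxna1 at 0.389 per kb in control.

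**Figure D3:**
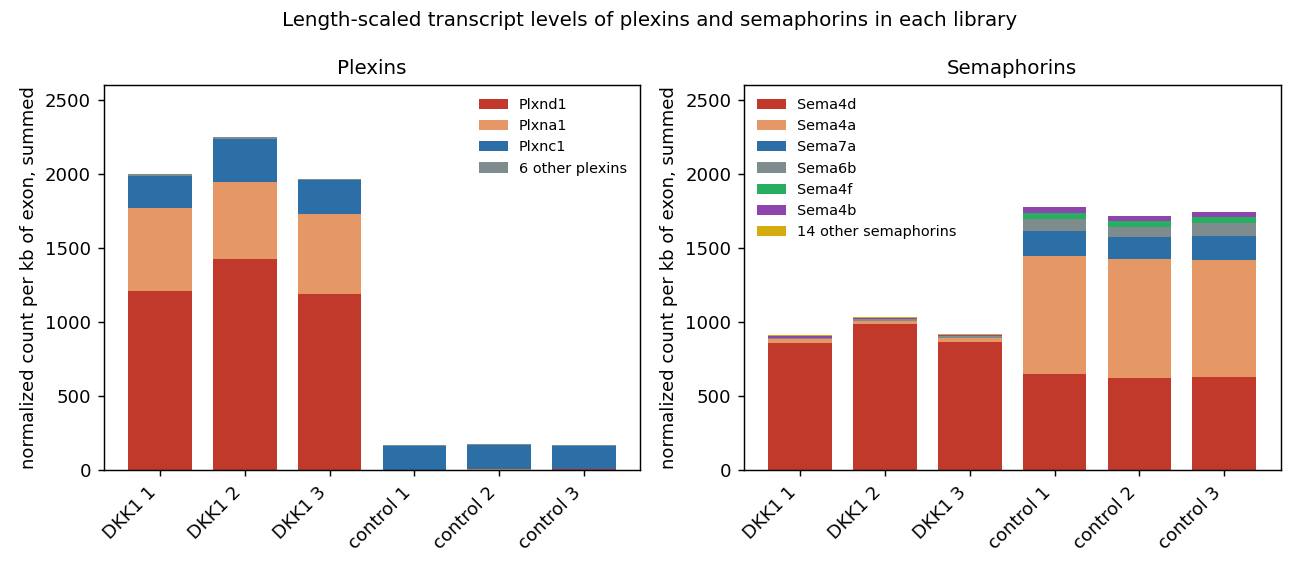
Stacked bars give the normalized count per kb of exon in each library, DKK1 1 to 3 left of control 1 to 3, for the plexins (left panel) and the semaphorins (right panel). The plexin bars with DKK1 are mainly Plxnd1 and Plxna1 and reach 1966 to 2248 per kb, and the semaphorin bars with DKK1 are almost wholly Sema4d.

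Genes next to the 10 most abundant family members were read for the local setting (nearest protein-coding gene on each side in GENCODE M21). Of the 20 neighbours, 13 (65.0%) passed the threshold, against 71.2% of all genes tested, 7 in the direction of the family member and 6 in the opposite direction. Beside Plxna1, Tpra1 (404 kb away) averaged 94.5 ± 2.43 with DKK1 and 89.95 ± 9.59 in control (adjusted p = 0.674, limma). Chchd6 (20.5 kb away) was low but higher with DKK1, at 7.56 ± 4.00 against 0.701 ± 0.610 in control (log2 change 2.28, adjusted p = 0.00614, limma). Beside Plxnd1, Tmcc1 (23.6 kb away) fell to 485 ± 82.1 with DKK1, against 4574 ± 56.9 in control (SD, n = 3 each; log2 change -3.25, adjusted p = 8.78e-09, limma). On its other side H1f8 (4.6 kb away) was higher, at 14.7 ± 3.44 with DKK1 and 0 in control (log2 change 3.95, adjusted p = 3.50e-05, limma). Lrg1, a granule protein gene of neutrophils 1.08 kb from Sema6b, averaged 1.72 ± 1.12 with DKK1 and 2514 ± 39.3 in control (log2 change -9.93, adjusted p = 2.23e-09, limma). These neighbours were picked for their values.

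Other genes of the pathway were read from a list of 58 that join semaphorins and plexins to the cell: further receptors, small GTPases, their regulators, effectors and proteases. Of 49 that passed the filter, 17 were higher and 24 lower with DKK1 (35.1% and 36.1% of all genes tested), with a median log2 change of -0.32, and 8 did not pass. With equal total reads the counts were 19 and 19 (43.6% and 29.2% of all genes tested). Genes of both directions stood in every role, except that with equal total reads no protease was lower. The counts by role below are to be set beside the same shares of all genes tested, and nothing is read from them.

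Among the 10 tested receptors, 4 were higher and 4 lower. MET, the receptor of hepatocyte growth factor, pairs with B-type plexins, and Met averaged 2847 ± 247 with DKK1 and 2.88 ± 2.38 in control (log2 change 9.69, adjusted p = 1.62e-08, limma). Itgb1, the integrin chain that Sema7a binds, averaged 5714 ± 469 with DKK1 and 587 ± 52.7 in control (log2 change 3.28, adjusted p = 1.76e-09). The plexin A1 partners moved apart: Trem2 averaged 27.9 ± 4.31 with DKK1 and 5.84 ± 5.67 in control (log2 change 2.46, adjusted p = 0.00661, 3.12 without control library 1 and 1.76 without control library 3), while Tyrobp, which encodes DAP12, averaged 2454 ± 128 with DKK1 and 13128 ± 130 in control (log2 change -2.42, adjusted p = 6.20e-10). L1cam, a co-receptor of Sema3a with neuropilin-1, averaged 10.9 ± 1.85 with DKK1 and 526 ± 25.7 in control (log2 change -5.48, adjusted p = 6.61e-09). Cd72, the Sema4d receptor of lymphocytes, averaged 40.7 ± 5.47 with DKK1 and 17.7 ± 3.82 in control (log2 change 1.17, adjusted p = 0.00428). Timd2, the TIM-2 gene, had 0 reads with DKK1 and 1 read in control. With a pseudocount of 10 the log2 change was 7.80 for Met, 1.31 for Trem2 and -4.68 for L1cam. All of these adjusted p-values are from limma over all genes tested, and means are ± SD of 3 libraries.

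Below the receptors, 5 of 13 small GTPases were higher and 6 lower (6 higher and 5 lower with equal total reads). With the authors' scaling the GTPases of smallest adjusted p were Rac2, Rap1b and Cdc42, and these fell. Rac2, the leukocyte Rac, fell to 2466 ± 273 with DKK1, against 11415 ± 162 in control. Rap1b, a target of the plexin GTPase-activating domain, fell to 2810 ± 116 with DKK1, against 6625 ± 206 in control. Cdc42 fell to 3915 ± 79.9 with DKK1, against 8046 ± 178 in control. Log2 changes were -2.22, -1.24 and -1.04 (adjusted p = 1.17e-08, 4.92e-08 and 5.91e-08, limma). With equal total reads the log2 changes of Rac2, Rap1b and Cdc42 were -1.69, -0.71 and -0.51. The 5 higher with the authors' scaling were Rap1a, Rras, Rnd2, Rras2 and Mras. Rap1a averaged 1703 ± 154 with DKK1 and 1180 ± 43.2 in control, and Rras 70.5 ± 11.2 and 18.5 ± 3.15. Rnd2, Rras2 and Mras averaged 37.1, 3.52 and 7.78 with DKK1 and 0.372, 0 and 0.701 in control. With equal total reads Rap1a had the smallest adjusted p of the small GTPases (log2 change 1.06, adjusted p = 3.39e-07, limma). Rhoa passed as lower with the authors' scaling (log2 change -0.24, adjusted p = 0.00128, limma). It passed as higher with equal total reads (0.29, adjusted p = 0.000704, limma). Of 8 regulators 2 were higher and 5 lower (2 and 4 with equal total reads). Sh3bp1, a GTPase-activating protein for Rac, averaged 36.4 ± 5.49 with DKK1 and 704 ± 68.9 in control, and the Rac exchange factor gene Tiam1 averaged 72.6 ± 5.57 with DKK1 and 323 ± 24.0 in control (adjusted p = 1.13e-08 and 3.68e-07, limma). Farp1, a FERM-domain exchange factor of the plexin A pathway, had 0 reads with DKK1 and 22.8 ± 7.21 normalized counts in control (adjusted p = 1.79e-05), while its relative Farp2 averaged 32.9 ± 6.75 with DKK1 and 8.48 ± 2.72 in control (adjusted p = 0.0012, limma, SD, n = 3 each).

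Of 14 effectors and adaptors, 4 were higher and 7 lower. Fes, a tyrosine kinase that acts on plexin A1 signalling, averaged 163 ± 18.3 with DKK1 and 5627 ± 134 in control (log2 change -5.10, adjusted p = 2.06e-10, limma). The cytoskeletal kinases Pak1 (31.4 ± 5.32 with DKK1 and 239 ± 33.5 in control) and Limk2 (70.0 ± 16.4 with DKK1 and 336 ± 22.0 in control) fell as well (adjusted p = 7.84e-07 and 2.18e-06, limma, SD, n = 3 each). Of the 4 proteases that release or process semaphorins, 2 were higher and 2 lower with the authors' scaling, and with equal total reads only the higher calls held. Adam17, a sheddase, averaged 4119 ± 375 with DKK1 and 810 ± 31.6 in control (log2 change 2.34, adjusted p = 7.03e-09, limma), and Mmp14, a membrane protease that cuts Sema4d, averaged 1058 ± 66.0 with DKK1 and 1.10 ± 1.10 in control, where it had 3 reads in all (adjusted p = 3.95e-08, limma). Furin, which processes class 3 semaphorins, averaged 2057 ± 202 with DKK1 and 2919 ± 74.2 in control (log2 change -0.51, adjusted p = 0.000235, limma), but its log2 change was 0.02 with equal total reads (adjusted p = 0.743). The log2 change of Adam10, another sheddase, was -0.41 (adjusted p = 0.000503) and turned to 0.12 with equal total reads (adjusted p = 0.205, limma). That of Mmp14 was 9.13, and 6.59 with a pseudocount of 10.

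**Figure D4:**
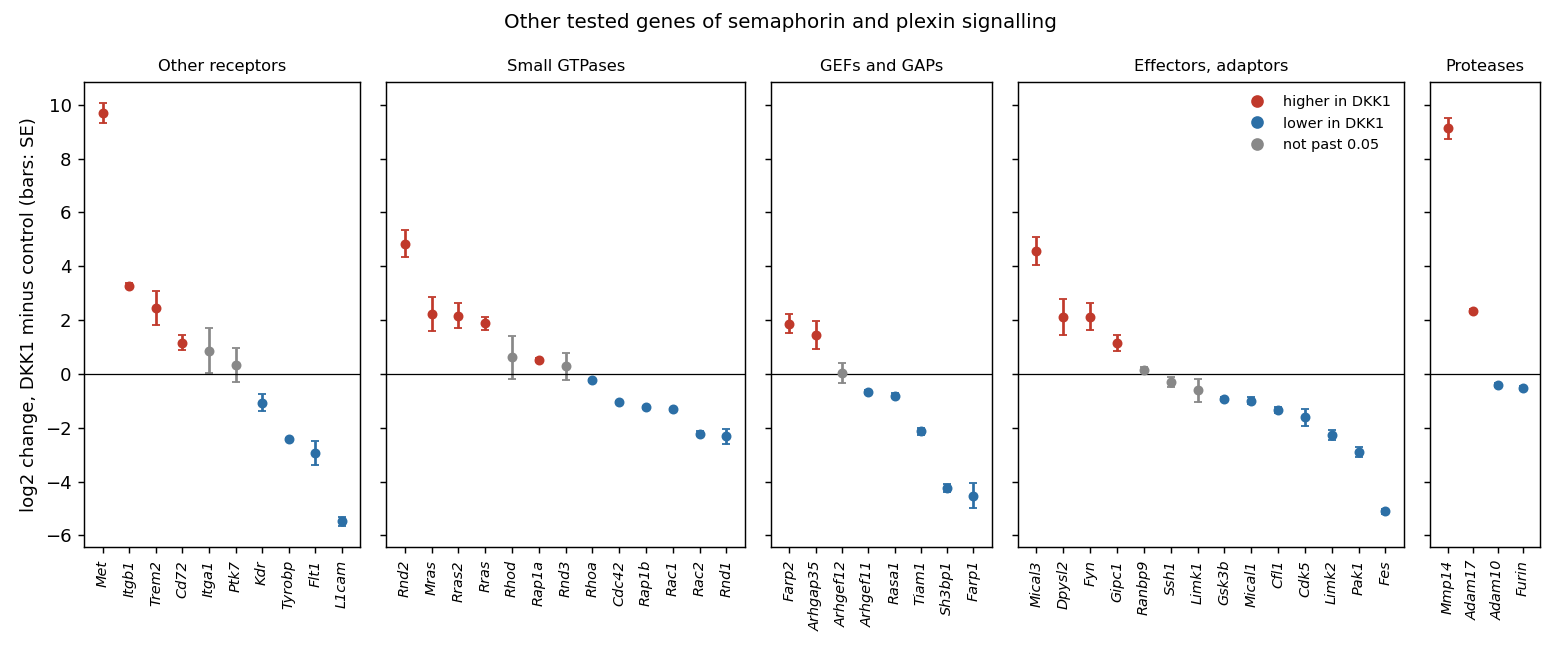
The log2 change (DKK1 minus control, bars: SE) of the 49 tested partner genes, a panel for each role, in red where higher with DKK1, in blue where lower and in grey where the adjusted p did not pass 0.05. Met and Mmp14 lie highest at 9.69 and 9.13, and L1cam and Fes lowest at -5.48 and -5.10.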

How the data were processed

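RNA was isolated with TRIzol or an RNeasy column and sequenced on Illumina instruments, per the labels' protocols. The authors deposited normalized counts per gene and library, a signal that is never negative, per the file headers. The build was mm10, per the submitters' processing notes. The sources used here do not give the aligner, counting tool, annotation or normalization method. A further 3 value columns match no sample and were not used. The authors' scaling may have been set with them included, which would bear on every normalized count. Identifiers matched GENCODE M21, without versions, for 51948 genes (91.3%), and lengths and positions come from it.

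Every deposited value was a whole multiple of 1 read (100% within 0.001), so reads were recovered. Counting limits, taken as 3 reads, cover counting error only. Limma 3.58.1 (R 4.3.3, trend and robust) tested DKK1 minus control on log2(normalized count + 1) for the 16265 genes at 1 or more in at least 3 libraries, two-sided, with Benjamini-Hochberg adjustment over all of them. On recovered reads, edgeR 4.0.16 called 5503 genes higher and 5897 lower, and DESeq2 1.42.0 called 5138 and 5541. Folds are ratios of group means. The added 1 makes log2 changes too small for low genes. The script was run on simulated counts with far fewer changed genes than were called here and no library that stood apart. That run checks the code and says nothing of the calls here.

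Groups come from the sample titles. Pairs of libraries within a group differed beyond counting noise, so none was merged. Family genes with a group mean of at least 100 are given by library. Partner genes are named by smallest adjusted p in each role, up to 3, or where a sentence refers to their role. Others were named for their values or for a dependence on settings, such as Met, Farp2, Rhoa, Adam10 and the higher small GTPases. The genes, lists and neighbours were chosen with earlier results of these data known.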

Additional observations from a re-analysis of the deposited data

How the results depend on the processing

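All 14 calls in the family kept their direction and side of the threshold under pseudocounts of 0.1 and 10, no filter, equal total reads, median-of-ratios scaling, limma without trend or robust fitting, edgeR, DESeq2 and the omission of each library. With a filter of at least 10 in 3 libraries, 13 family genes were tested and all 13 kept their call, while Sema4c was not tested. On leaving out a library, the family gave 8 higher and 6 lower calls each time, partner genes 15 to 17 higher and 23 to 24 lower, and all genes 5409 to 5651 higher and 5483 to 5895 lower. Partner calls lost in this way were Arhgap35 (without DKK1 library 2 or 3, or control library 2 or 3), Dpysl2 (without DKK1 library 3, or control library 1 or 3) and Kdr (without control library 2), with adjusted p of 0.058 to 0.103. Other settings also ended partner calls. With a filter of at least 10 in 3 libraries, 38 partner genes were tested, and 12 were higher and 23 lower. Over all 11714 genes tested with that filter, 4927 were higher and 4815 lower. With equal total reads the calls that ended were Furin, Adam10, Arhgef11 and Kdr, and Rhoa passed in the other direction (log2 change 0.29, against -0.24). Rhoa was lost without trend or robust fitting, Dpysl2 with a pseudocount of 0.1 and with DESeq2, and Arhgap35 with DESeq2. Among genes past the threshold under no setting, the sign of the log2 change turned for Sema3b (-0.22, but 0.16 with equal total reads and -0.73 to 0.36 on leaving out a library, highest without DKK1 library 1), Sema6c (-0.14, but 0.0051 with a pseudocount of 10, 0.078 with equal total reads and -0.65 to 0.31 on leaving out a library, highest without DKK1 library 3) and Sema6d (0.34, but -0.25 to 1.10 on leaving out a library, below 0 without DKK1 library 1 or control library 3). The cause was not tested. Same-numbered libraries did not deviate together (correlations of -0.00517, 0.00659 and 0.0172), and with the replicate number as a block the family gave 8 higher and 6 lower calls, partner genes 17 and 24, and all genes 5630 and 5817. Depth limits what can be said of the 12 genes that were not tested, which had at most 10 reads over all libraries.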
